A study of Mus musculus with 2 samples.

Results

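SR proteins, the serine/arginine-rich splicing factors encoded by the Srsf genes, were compared between p53-deleted and wild-type nephron progenitor cells. The genes were chosen by symbol, as every protein-coding row named Srsf followed by a digit, and the family was selected on its densities in WT against KO, so those densities are given as a description with no test. This gave 8 genes of the 10627 rows in the deposited table: Srsf1, Srsf2, Srsf3, Srsf5, Srsf6, Srsf7, Srsf10 and Srsf11. The mouse annotation holds 11 such symbols, and the other 3, Srsf4, Srsf9 and Srsf12, are not analysed here. The table lists only genes with a corrected p-value under 0.05 in the authors' own comparison (its largest is 0.04998), so each of these 8 had passed that comparison of the libraries.

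Both libraries came from embryonic mouse kidneys at embryonic day 15.5, on a mixed CD1 and C57BL background, from cap mesenchyme cells sorted by flow cytometry. The wild-type library (WT) had the genotype Six2CreGFP+;p53+/+ and the knockout library (KO) the genotype Six2CreGFP+;p53f/f, so both carry the transgene that places Cre and GFP under Six2 control, and Cre acts only where that transgene is active. There was 1 library per genotype, the number of embryos behind each is not given in the sources used here, and no difference below has a replicate check. The measurement was RNA sequencing, reported as a read density per gene that behaves as RPKM, reads scaled to gene length and library size, so levels can be compared between genes.

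An SR protein joins an RNA recognition motif, which binds short motifs in exons, to a tail rich in arginine and serine dipeptides, which contacts other splicing proteins once it is phosphorylated. Bound to exonic enhancers, SR proteins help the U1 particle and the U2AF dimer find the splice sites of the exon. Many SR genes limit their own output by including a poison exon, which carries a premature stop codon and sends the transcript to nonsense-mediated decay.

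Stretches upstream of 3 genes are shown because they represent the family's highest density as deposited (Srsf6), its largest difference (Srsf7) and its smallest (Srsf5). They are the longest run free of annotated exons within the 250 bases before the RefSeq start, on build GRCm38.p6, written 5′ to 3′ on the strand of the gene. Srsf6 is at chr2:162931258-162931507 on the plus strand, Srsf7 at chr17:80207308-80207459 on the minus strand and Srsf5 at chr12:80945397-80945498 on the plus strand. Capitals mark matches, on either strand, to the GC box of Sp1-like factors, written GGGCGG. They also mark the core bound by ETS factors, written CCGGAA, and the cyclic AMP response element, searched as TGACGT. A GC box and an ETS core overlap in the longest capital run of Srsf5.
Srsf6: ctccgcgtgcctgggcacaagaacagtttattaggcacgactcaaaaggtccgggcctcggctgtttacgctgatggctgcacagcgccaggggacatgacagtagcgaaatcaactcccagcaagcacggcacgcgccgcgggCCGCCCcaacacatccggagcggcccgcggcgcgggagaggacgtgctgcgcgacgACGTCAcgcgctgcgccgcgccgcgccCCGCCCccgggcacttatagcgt
Srsf7: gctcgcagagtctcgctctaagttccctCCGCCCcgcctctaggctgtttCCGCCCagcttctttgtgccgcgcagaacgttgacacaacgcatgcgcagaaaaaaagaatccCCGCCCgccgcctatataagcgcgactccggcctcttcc
Srsf5: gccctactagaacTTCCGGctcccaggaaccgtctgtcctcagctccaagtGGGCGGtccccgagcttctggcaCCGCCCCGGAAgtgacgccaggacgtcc
All 8 windows of 250 bases were rich in CpG, with 17 to 35 CpG pairs each against a median of 6 over 32851 promoter windows. Their GC content lay between 56.8% and 72.0%, against a median of 52.4%. A GC box was present in 7 of 8 windows and in 32.7% of all windows, and an ETS core in 5 of 8 and in 12.0%. The cyclic AMP response element was present in 3 of 8 against 6.47%, and the CCAAT box in 3 of 8 against 33.8%. TATAAA was found in 2 of 8 windows against 12.4%. The E box CACGTG (6.02% of all windows) and the 10-base core motif of p53 response elements (7.13%) had no match in these 8 windows, which says only that those letters are not there. The windows of most Srsf genes also hold annotated exons; that of Srsf10 lies wholly within them, and its RefSeq start is 324 bases from the deposited gene start.

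All 8 Srsf genes had a higher density in KO than in WT, by small amounts. On the scale log2(RPKM + 1), used for every difference here, KO minus WT ran from 0.064 for Srsf5 to 0.42 for Srsf7, with a median of 0.31. The summed density of the family was 709 RPKM in WT against 847 RPKM in KO, giving a ratio of 1.19. A density floor of 7.30 RPKM, the median over the table of the mean of both libraries, left 5309 genes and all 8 Srsf genes. Of those 5309 genes 44.2% were higher in KO, and their median difference was -0.072. No Srsf gene reached 1.5-fold in either direction, where 0.659% of those genes were at least 1.5-fold higher and 2.41% at least 1.5-fold lower. At least 25% higher in KO were 3 of 8 (Srsf1, Srsf7 and Srsf10), against 5.07% of all genes over the floor, and none was lower by that factor, against 7.33%. Srsf11, with a difference of 0.32, lay just under that limit because of the pseudocount of 1: its density itself was more than 25% higher in KO, and with a pseudocount of 0.25 the count was 4. Since the family was selected with these densities known, the counts describe the family and are not evidence of a change in it. In bulk RNA, a difference in the mix of sorted cells and a difference in RNA per cell cannot be told apart.

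**Figure D1:**
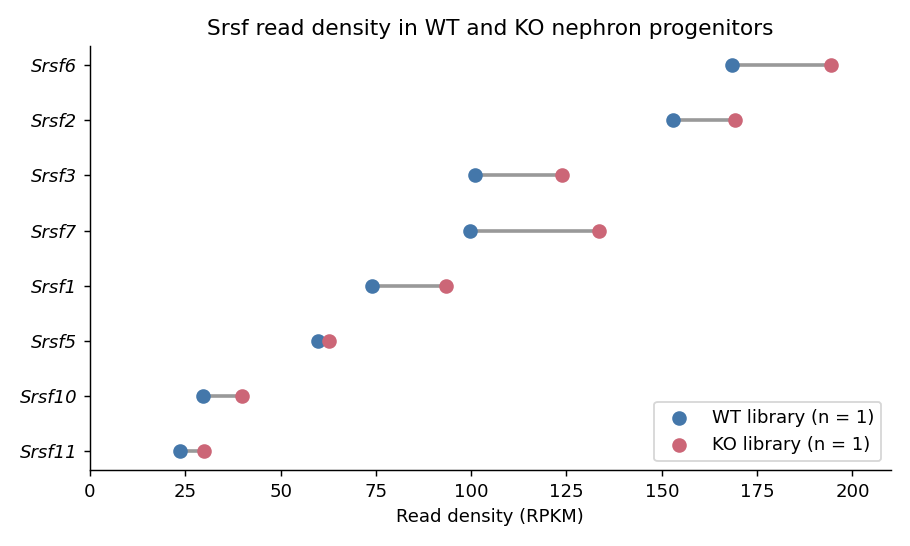
Read density in RPKM (horizontal axis) of each Srsf gene in the WT library (blue) and the KO library (red), 1 library per group and so no error bars. The KO point lies to the right of the WT point in all 8 genes, least so for Srsf5 (59.9 and 62.6 RPKM).

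Among the SR proteins with an additional, degenerate RNA recognition motif, the ratio was highest for Srsf1 and lowest for Srsf5. As deposited, Srsf6 had the highest density of the family in both libraries. It was at 168 RPKM in WT against 194 RPKM in KO, giving a ratio of 1.15 (95% interval 1.14 to 1.17). Srsf6 (ENSMUSG00000016921) lies on the plus strand at chr2:162931528-162937121. Srsf1, the founding SR protein and a known proto-oncogene, was at 73.9 RPKM in WT against 93.4 RPKM in KO, giving a ratio of 1.26 (1.247 to 1.281). Its gene (ENSMUSG00000018379) is on the plus strand at chr11:88047373-88053755. Srsf5, whose protein resembles that of Srsf6, was at 59.9 RPKM in WT against 62.6 RPKM in KO, giving a ratio of 1.05 (1.03 to 1.07). Srsf5 (ENSMUSG00000021134) is on the plus strand at chr12:80945504-80950507. Its interval does not overlap those of Srsf1 and Srsf6, so within these libraries the densities of the members differed by unequal factors. These intervals are Clopper-Pearson intervals on estimated reads and cover counting error only, not the spread between embryos or libraries.

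Srsf2, Srsf3 and Srsf7, classical SR proteins without that additional motif, each had a higher density than Srsf10 and Srsf11. Srsf2, known as SC35 and used as a marker of nuclear speckles, was at 153 RPKM in WT against 169 RPKM in KO, giving a ratio of 1.11 (1.09 to 1.12). Srsf2 (ENSMUSG00000034120) is on the minus strand at chr11:116849901-116853094. Srsf3, the smallest SR protein, which also links splicing to mRNA export, was at 101 RPKM in WT against 124 RPKM in KO, giving a ratio of 1.23 (1.21 to 1.24). It (ENSMUSG00000071172) lies on the plus strand at chr17:29032673-29043366. Srsf7, the closest relative of Srsf3 and set apart from it by a zinc knuckle, was at 99.7 RPKM in WT against 134 RPKM in KO, giving a ratio of 1.34 (1.32 to 1.36). Srsf7 (ENSMUSG00000024097) is on the minus strand at chr17:80200089-80207305. As deposited, Srsf3 and Srsf7 were next to each other in level in WT and exchanged ranks in KO. There Srsf7 was the third and Srsf3 the fourth of the family. The other 6 genes kept their rank.

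The remaining pair had the lowest densities. Srsf10, which turns into a general splicing repressor when dephosphorylated in mitosis or after heat shock, was at 29.7 RPKM in WT against 39.8 RPKM in KO, giving a ratio of 1.34 (1.32 to 1.37). Srsf10 (ENSMUSG00000028676) is on the plus strand at chr4:135855747-135869908. Srsf11, a larger and more divergent SR protein, was at 23.7 RPKM in WT against 29.9 RPKM in KO, giving a ratio of 1.26 (1.24 to 1.29). Srsf11 (ENSMUSG00000055436) is on the minus strand at chr3:158010473-158036639. The ratios of Srsf7 and Srsf10 could not be told apart by counting error, nor could those of Srsf1 and Srsf11. The family thus spanned a 7.11-fold range of deposited density in WT. Among all 10617 listed symbols Srsf6 ranked 296 in WT and 242 in KO, and Srsf11 2386 and 1875. The estimated reads behind these values ran from 18254 (Srsf11) to 73928 (Srsf6) in WT and from 21393 (Srsf5) to 83803 (Srsf3) in KO.

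In the authors' deposited table every Srsf gene was also higher in KO, with signed fold changes from 1.09 (Srsf5) to 1.40 (Srsf10). Those folds equal the density ratio times 1.04, a library scaling of 0.057 on the log2 scale. The deposited p-value was 0 for 7 of the 8 genes and 2.5e-06 for Srsf5 (corrected 1.59e-05). These p-values compare the reads of 2 libraries, not the genotypes.

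Above the density floor, base composition moved with the difference, with a Spearman rank correlation of -0.52 between GC content and the difference across 5263 genes with a gene model, which are not independent replicates. Among the 8 Srsf genes that rank correlation was 0.0. Exonic length moved with the difference too, with a rank correlation of 0.34 across the 5263 genes and 0.26 among the Srsf genes. Of the 8 Srsf genes, 5 were longer than the median of 4014 bases. The longest annotated transcript of every Srsf gene had a GC content below the median of all genes over the density floor (50.2%), from 40.1% in Srsf5 to 49.97% in Srsf2, with a family median of 41.5%. The 2304 genes within that GC range had a median difference of 0.10, and 66.3% of them were higher in KO. Each gene's difference was therefore also expressed relative to the median of genes of like GC content and length, returned to the scale of the whole table. With this GC and length correction the family median went from 0.31 to 0.10, against -0.072 over all genes, and 6 of 8 genes stayed above 0, against 28.1% of all genes. Srsf7 went from 0.42 to 0.16, Srsf10 from 0.41 to 0.13, Srsf11 from 0.32 to 0.13 and Srsf1 from 0.33 to 0.078. Srsf2, the member with the highest GC content, went from 0.14 to 0.15. Srsf3 went from 0.29 to 0.012, while Srsf6 and Srsf5 turned negative, at -0.021 and -0.19. After it no Srsf gene was at least 25% higher, where 2.66% of all genes were. On the authors' scaling 5 of 8 were, against 8.29%.

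**Figure D2:**
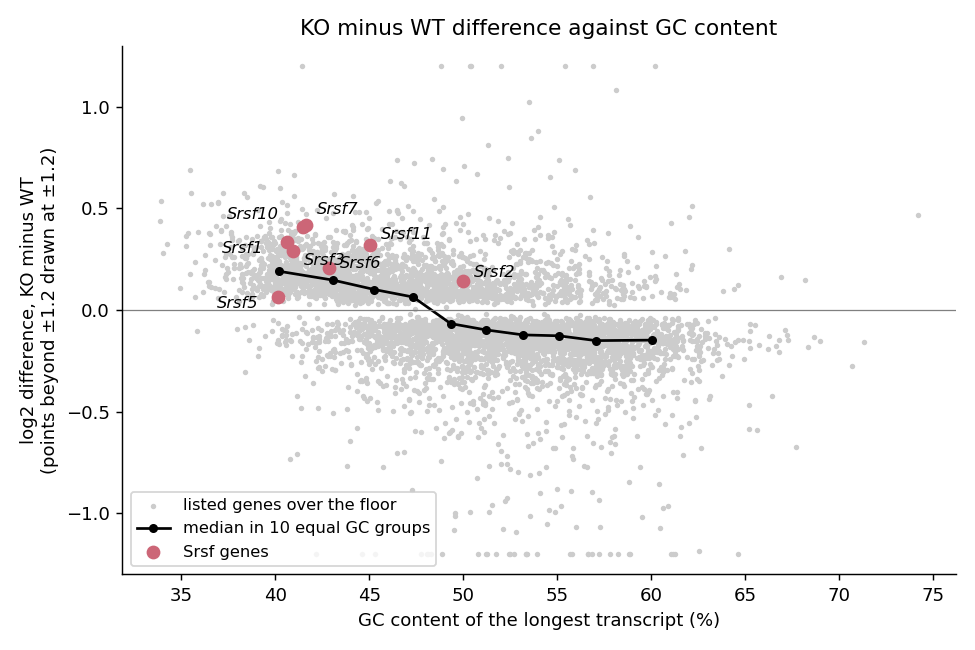
GC content of the longest transcript in percent (horizontal axis) against the log2 difference KO minus WT (vertical axis) for listed genes over the density floor (grey), with the median in each of 10 equal GC groups (black) and the Srsf genes (red). Srsf5, at 0.064, is the member that lies below the line of medians, and few genes lie close to 0 in a table that lists only genes past the authors' p-value limit.

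Set against genes of the same GC and length bin, 7 of 8 Srsf genes were above their bin's median. Srsf7 was higher than 94.8% of the genes in its bin, Srsf11 than 93.6%, Srsf10 than 92.5%, Srsf1 than 86.9% and Srsf2 than 85.7%. Srsf6 was higher than 71.8% and Srsf3 than 70.95%. Srsf5 was the exception, higher than 9.09% of the genes in its bin. The bins hold listed genes only, 78 to 242 for each member, and their medians move with which genes the table lists.

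**Figure D3:**
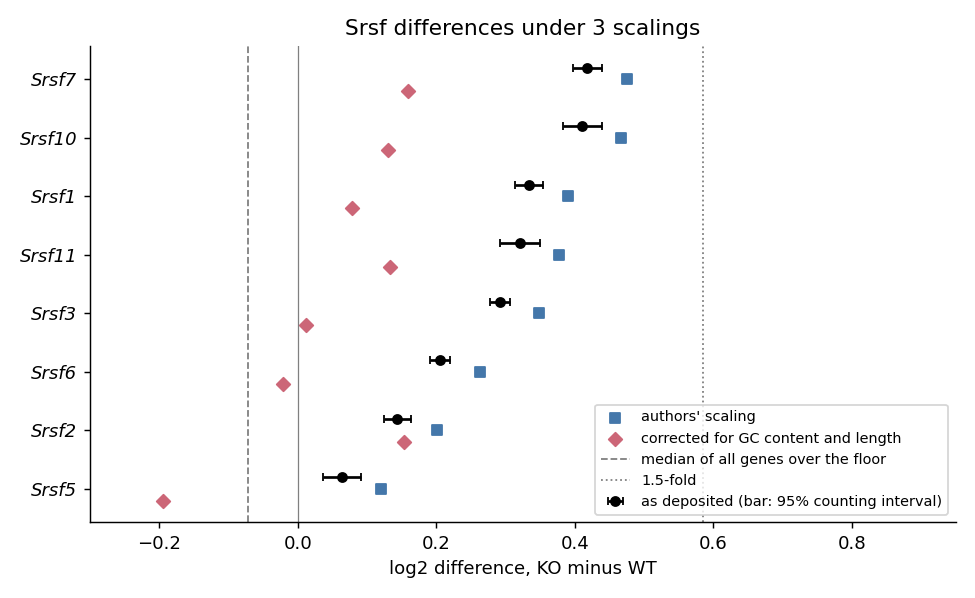
The log2 difference KO minus WT (horizontal axis) of each Srsf gene as deposited (black), on the authors' scaling (blue) and after the GC and length correction (red). Black bars have the width of the 95% counting interval of the log2 ratio without pseudocount, and are drawn around the log2(RPKM + 1) difference. The corrected values run from -0.19 for Srsf5 to 0.16 for Srsf7, and all uncorrected values lie above 0 and below 1.5-fold (dotted line).

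Several Srsf genes share sequence with other rows of the table. A search of all annotated transcripts for stretches of at least 200 bases at 95% identity found listed copies elsewhere in the genome for Srsf3, Srsf5 and Srsf10. The copy of Srsf5 is Gm12966, a pseudogene on the plus strand at chr4:129899093-129899902 that is 98.6% identical over 813 aligned bases. Gm12966 had a density of 584 RPKM in WT against 622 RPKM in KO, 9.75 times that of Srsf5 in WT. The estimated reads on Gm12966 were 43138 in WT, or 66.5% of those on the gene and its copy together. By these estimates the row of Srsf5 holds the smaller part of the reads on this sequence, and its density is uncertain.

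Srsf3 had a pair of listed copies. Gm9761, a processed pseudogene on the minus strand at chr3:116561085-116561426 with 99.6% identity, was at 292 RPKM in WT against 332 RPKM in KO. Gm12355, on the minus strand at chr11:98624351-98625661 with 98.3% identity, was at 96.7 RPKM in WT against 106 RPKM in KO and is deposited as protein-coding. The copy of Srsf10, Gm5446 (minus strand, chr13:19995021-19995803, 98.4% identity), was at 69.9 RPKM in WT against 84.6 RPKM in KO. All 4 copies were higher in KO, with differences of 0.19 for Gm9761, 0.13 for Gm12355, 0.27 for Gm5446 and 0.092 for Gm12966. Adding the copies' estimated reads to their parent genes, a choice made after seeing the data, gave differences of 0.26 for Srsf3, 0.38 for Srsf10 and 0.083 for Srsf5, against 0.29, 0.41 and 0.064 without them. With the copies added, Srsf5 was at 178 RPKM in WT and 189 RPKM in KO, above Srsf6 in WT (168 RPKM). Srsf3 was then at 130 and 156 RPKM, above Srsf7 in both libraries (99.7 and 134 RPKM). The ranks of density within the family thus depend on how reads were assigned. How the authors assigned reads that align to several places is not given in the sources used here, so reads of gene and copy cannot be told apart.

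**Figure D4:**
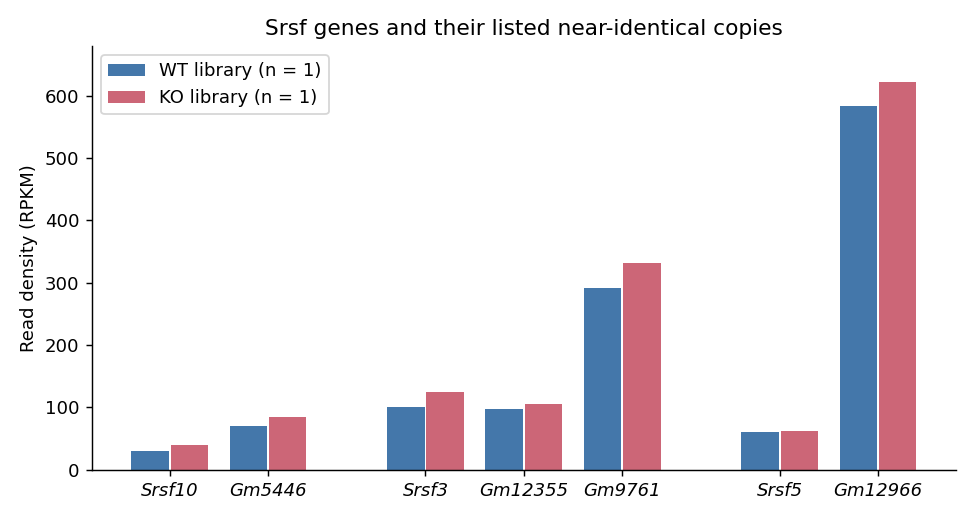
Read density in RPKM (vertical axis, from 0) in the WT library (blue) and the KO library (red) for the 3 Srsf genes with listed near-identical copies and, to the right of each, those copies. Gm12966 stands at 584 and 622 RPKM beside Srsf5 at 59.9 and 62.6 RPKM.

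Srsf2 overlaps other genes in place. The opposite-strand gene Mettl23 covers 15.6% of the annotated exonic bases of Srsf2, and Mfsd11 covers 9.74%. Mettl23 was at 40.2 RPKM in WT against 43.4 RPKM in KO, and Mfsd11 at 2.76 and 2.40 RPKM. An antisense gene, Gm11508, covers 1.72% of the exonic bases of Srsf1. Strand use in counting is not given in the sources used here, so reads in these stretches cannot be assigned to either strand.

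The genes also share annotated transcript types. Of the 8 Srsf genes, 7 have at least 1 transcript annotated as a target of nonsense-mediated decay, against 23.7% of 5263 genes over the floor, and 7 have a retained-intron transcript, against 54.0%. Srsf10 is the member with neither. The median number of annotated transcripts was 9 per Srsf gene and 5 per gene overall. Over all genes, those with such a decay transcript had a median difference of -0.063 and those without -0.074, an order that was reversed by the GC and length correction, at -0.085 and -0.067. The density covers a whole gene model, so productive and poison-exon transcripts of a Srsf gene are not separated. In the deposited annotation, 5 of 8 Srsf genes carry the term RNA splicing, against 1.73% of genes over the floor. The term nuclear speck is carried by 5 of 8, against 1.62%. The 87 other genes over the floor with the splicing term had a median difference of 0.060, with 48 higher in KO. The 81 others with the speck term had one of 0.089, with 51 higher. Over all genes above the floor the median was -0.072, with 44.2% higher. After the correction the medians of the splicing and speck terms were -0.068 and -0.040, against -0.072 over all genes.

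The partners of SR proteins were looked at in 6 lists of genes. Higher in KO were 36.1% of all listed genes and 44.2% of those over the density floor. Most listed genes of each list lie over that floor. The SR-related proteins, which carry arginine and serine repeats without being classical SR proteins, were mostly higher, 17 of 20 listed of 29 names, with a median of 0.14. Tra2b, an enhancer-binding activator, was at 20.4 RPKM in WT against 27.9 RPKM in KO, and Luc7l2, a U1-associated protein, at 13.1 and 16.7 RPKM. Rnps1, an activator found in the exon junction complex, went the other way, at 62.4 RPKM in WT against 45.0 RPKM in KO, a difference of -0.46. Luc7l3 was at 17.0 and 15.7 RPKM. After the GC and length correction, 3 of these 20 were above 0, against 28.1% of genes over the floor. The list median was then -0.038, against -0.072 over all genes.

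Proteins of the hnRNP and PTB families, which often bind as antagonists of SR proteins, were also mostly higher, 15 of 17 listed of 21 names, with a median of 0.16. Hnrnpa1, the classical antagonist of Srsf1, was at 141 RPKM in WT against 209 RPKM in KO, a difference of 0.56 that went to 0.36 after the correction and, on the authors' scaling, to 0.62, past 1.5-fold. Near-identical copies were sought for the Srsf genes and not for the companion genes, so the share of reads that Hnrnpa1 has in common with other rows is not known here. Ptbp2 was at 20.6 and 26.0 RPKM, while Hnrnpf was at 91.1 and 79.6 RPKM and Hnrnpm at 93.1 and 90.4 RPKM. The difference of Hnrnpm was -0.043 and turned to 0.014 on the authors' scaling and to 0.029 when centred on the median of all genes. The list median after the correction was -0.038, against -0.072 over all genes, with 7 of 17 above 0, against 28.1%.

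Enzymes that phosphorylate, dephosphorylate or import SR proteins did not share a direction. Of 7 listed of 11 names, 3 were higher and 4 lower, with a median of -0.044. Prpf4b, a kinase of spliceosomal proteins, was at 38.7 RPKM in WT against 50.3 RPKM in KO, and Dyrk1a at 15.8 and 17.7 RPKM, a difference that turned to -0.0080 after the correction. Clk3, a kinase of the arginine and serine tail, was at 14.6 and 12.8 RPKM, and the phosphatase subunit gene Ppp1ca at 296 and 271 RPKM. The median turned to 0.027 after centring and to 0.0095 on the authors' scaling. After the correction it was -0.15, against -0.072 over all genes, with 1 of 7 above 0, against 28.1%.

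Proteins that recognise the splice sites were split as well, 3 higher and 5 lower of 8 listed of 13 names, with a median of -0.059 that turned to 0.013 after centring. Snrnp70, the U1 subunit that SR proteins contact, was at 150 RPKM in WT against 162 RPKM in KO, and Sf3b1 of the U2 particle at 54.7 and 61.1 RPKM, a difference that turned to -0.074 after the correction. Snrpa, another U1 subunit, was at 46.1 and 42.3 RPKM, and Zrsr1, a relative of the U2AF small subunit, at 3.42 and 2.94 RPKM. After the correction 2 of 8 were above 0, against 28.1% of genes over the floor, with a median of -0.047, against -0.072.

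Factors of nonsense-mediated decay, the route that removes poison-exon transcripts, had 4 of 5 listed of 10 names higher, with a median of 0.092. Upf2 was at 11.6 RPKM in WT against 12.8 RPKM in KO, a difference that turned to -0.098 after the correction. Smg8 was at 19.2 and 20.97 RPKM and Smg5 at 34.5 and 32.9 RPKM, a difference of -0.068 that turned to 0.0036 after centring. Genes of the exon junction complex and mRNA export had 5 of 8 listed of 12 names higher, with a median of 0.083. Thoc2 of the export complex was at 5.61 and 7.60 RPKM, and the adaptor Alyref at 20.7 and 23.4 RPKM. Eif4a3, the core helicase of the junction complex, was at 23.1 and 21.6 RPKM, and Magohb at 0.529 and 0.326 RPKM. The corrected medians of these lists were -0.098 and -0.032, against -0.072 over all genes. Above 0 were 1 of 5 and 3 of 8 genes, against 28.1% of genes over the floor. On the log2(RPKM + 1) scale no gene of the 6 lists reached 1.5-fold in either direction, where 0.951% of all listed genes were at least 1.5-fold higher and 5.49% at least 1.5-fold lower. Magohb, with less than 1 RPKM in both libraries, had a difference of -0.21 on that scale and a signed fold of -1.56 in the authors' deposited table.

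**Figure D5:**
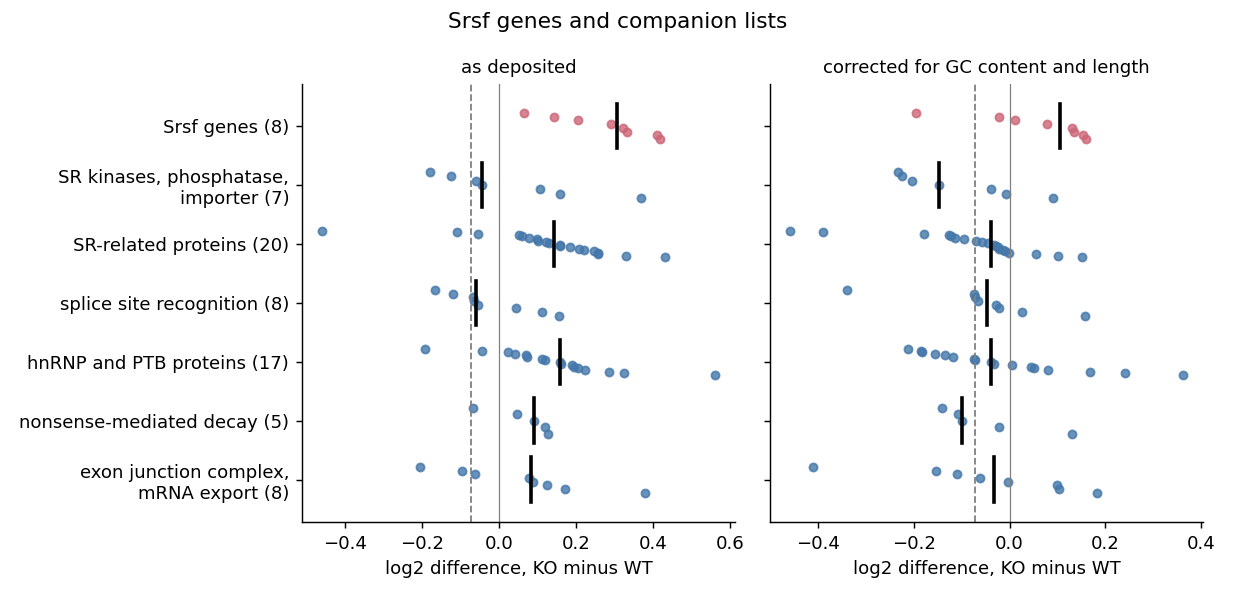
The log2 difference KO minus WT (horizontal axes) of the Srsf genes (red) and of the listed genes of 6 companion lists (blue, numbers of genes in brackets), as deposited (left) and with the GC and length correction (right), with list medians as black bars, 0 as a solid line and the all-gene median, -0.072, as a dashed line. The Srsf median is 0.31 on the left and 0.10 on the right. On the right the medians of the 6 companion lists run from -0.15 to -0.032, on both sides of the all-gene median.

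The labels and the mix of cells were checked in the same libraries. Trp53 was at 33.9 RPKM in WT against 5.38 RPKM in KO, and the density covers exons outside the deleted part too. All 10 nephron progenitor markers were listed, with 4 higher and 6 lower in KO and a median difference of -0.087. Of all listed genes 63.9% were lower in KO, and their median difference was -0.11. The summed density of the 10 progenitor markers was 1068 RPKM in WT against 1106 RPKM in KO. Among them, Six2 was at 482 and 509 RPKM and Cited1 at 23.6 and 16.1 RPKM. Markers of other cells were lower in KO without exception among those listed: 10 of 11 erythroid names (summed 633 and 23.9 RPKM, Gata1 listed at 0 in KO), 9 of 11 leukocyte names (15.4 and 2.06 RPKM), 10 of 10 endothelial names (22.2 and 9.62 RPKM) and 12 of 12 stromal names (221 and 83.3 RPKM). Their part in the Srsf differences was not tested.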

How the data were processed

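Sorted nephron progenitor cells of 2 genotypes were sequenced as RNA, 1 library each. Per the submitters' processing notes, CASAVA 1.8, Novoalign 2.08.02 and FastQC were used, beside the builds GRCm38 and mm10; which step each served is not stated. Per the file headers, each library has a read density, and the comparison has p-values (raw and corrected), an absolute fold change (a ratio) and a signed fold change (a score, negative where KO is lower). The deposited density behaves as RPKM, a reading from the values: for genes at 0 in 1 library the fold changes step by whole reads within 0.01 of a read (149 of 170 genes in WT and 70 of 75 in KO), which with gene length implies about 91200000 reads in WT and 85600000 in KO. Of those genes with a gene model, 99 of 148 in WT and 48 of 67 in KO gave a depth within 0.5% of the median and set it. Read estimates and their 95% Clopper-Pearson intervals rest on these depths and on GENCODE vM21 exonic lengths, and cover counting error only.

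Of rows that share a symbol, the row with the highest mean density was kept (10617 symbols). Differences are log2(RPKM + 1), KO minus WT, which understates the change of low genes. Sizes were judged at 1.5-fold and at 25% higher, or lower by that factor, with no test, because a group of 1 library has no spread. GC content (longest transcript) and exonic length came from GENCODE vM21, with 10 GC bins by 4 length bins over genes above the floor. Copies were sought with BLAST 2.17.0 and values computed with Python 3.11.15, pandas 2.3.3 and scipy 1.17.1. Promoter sequences are from RefSeq (GRCm38.p6) and matched 8 of 8 genes. Scripts were tested on simulated data. Named genes are every Srsf gene, at most the 2 highest and 2 lowest of each companion list, Trp53, Six2 and Cited1; copies and overlapping genes were named from the sequence search. Mouse proteins' sequences were not used here. The members and lists were chosen with earlier results of these data known.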

Additional observations from a re-analysis of the deposited data

How the results depend on the processing

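With 1 library per genotype, no value here has a replicate check, and no paired analysis was possible because each group has 1 library and no replicates to pair. The Srsf median of 0.31 stayed positive under every alternative, at 0.38 centred on the all-gene median, 0.36 on the authors' scaling and 0.10 after the GC and length correction. All 8 genes were higher under every alternative but that correction, where 6 were. The count at 1.5-fold higher was 0 throughout, and 3 at the size rule of 25%; that count of 3 became 4 with a pseudocount of 0.25, 5 after centring, 5 on the authors' scaling and 0 after the correction. Of 48 values of single Srsf genes under the 6 alternatives, 46 were above 0 and 2 below, and 26 moved beyond the counting interval. Over all genes above the floor, 35 were at least 1.5-fold higher and 128 lower; the higher count was 22 with a pseudocount of 4 and 54 after centring. Without the floor the counts were 101 and 583, and at the size rule of 25% 269 and 389. Of 115 values of the named companion genes 6 changed sign, and of 30 companion list medians 7 did. The named genes were picked for the largest differences of their lists, so they do not stand for all listed companion genes. In every list fewer genes were above 0 after the GC and length correction. For the SR-related proteins the count went from 17 to 3 of 20, and for the hnRNP and PTB proteins from 15 to 7 of 17. After the GC and length correction these signs are read against an all-gene median of -0.072, not 0. For all of these the cause was not tested. Adding the reads of copies was chosen after seeing the data. Counting intervals, computed for the Srsf genes only, were narrow at this read depth. The missing replicates, the trend with GC content and length, and reads shared with copies limit these comparisons.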
